A study of Mus musculus with 11 samples.

Results

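The enteric neuropeptides and transmitter synthesis enzymes examined here are 10 genes of the neurons that control the stomach muscle: Vip, Tac1, Gal, Npy, Cartpt, Sst, Grp, Penk, Nos1 and Chat. They were chosen by name, and every probe set whose platform annotation gives 1 of these symbols alone was taken. That gave 14 probe sets for the 10 genes, out of 45037 probe sets other than controls and 18193 genes. Nos1 has 4 probe sets, Tac1 has 2 and each of the other genes has 1. The probe sets of a gene share a transcript and are not replicates.

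RNA was measured on Affymetrix mouse genome arrays, 1 array per sample. The tsA58 line (2xSCS70, 3 arrays) is a clone of progenitor cells from H-2Kb-tsA58 mice. The progenitors give rise to the pacemakers of gut muscle, the interstitial cells of Cajal (ICC). These mice carry a thermolabile SV40 large T antigen driven by the interferon-inducible H-2Kb promoter. The cells grew at 39.5 °C, with no interferon-gamma added, in a proliferation medium for neural stem cells. The C57BL/6J line (2xSCS2F10, 3 arrays) is a clone of such progenitors from wild-type mice, grown at 37 °C in that medium with 5% chick embryo extract. The tsA58 tissue (3 arrays) and the C57BL/6J tissue (2 arrays) are gastric tunica muscularis, the muscle layers of the stomach wall that hold the enteric plexus, from each strain. Each line is 1 clone, so differences between lines cannot be told apart from differences between clones, strains, temperatures and media. The labels give neither age nor sex, and nothing states that arrays of a group came from separate cultures or animals, so the spread behind the p-values may be technical.

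Enteric neurons lie in plexuses within the gut wall and release a fast transmitter together with peptides from dense-core granules. Inhibitory motor neurons relax smooth muscle through nitric oxide, made by the neuronal synthase Nos1, and through vasoactive intestinal peptide, encoded by Vip. Excitatory motor neurons use acetylcholine, made by choline acetyltransferase (Chat), and the tachykinins substance P and neurokinin A, both cut from the Tac1 precursor. Grp, Penk, Gal, Npy, Cartpt and Sst encode gastrin-releasing peptide, the enkephalins, galanin, neuropeptide Y, the CART peptides and somatostatin, which occur in further sets of enteric neurons. In the stomach, somatostatin also comes from D cells of the mucosa.

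The cyclic AMP response element, with the core TGACGTCA, is a classical control sequence of neuropeptide genes, so promoters that hold it are shown. Promoters of 8 of the 10 genes were in the RefSeq table (GRCm38.p6), with 1 window for each of the 8, from 250 bases before to 50 after a start that the table uses. For Cartpt and Sst the annotated gene reaches upstream of the window, so other starts there are not covered. For Vip the upstream end of the annotated gene lies within the window. Both strands were searched for TGACGTCA and for its first 7 letters, TGACGTC, which lie within it. Capitals mark the matches, on sequences written 5′ to 3′ on the strand of the gene.
Vip (chr10:5638968-5639267, plus strand): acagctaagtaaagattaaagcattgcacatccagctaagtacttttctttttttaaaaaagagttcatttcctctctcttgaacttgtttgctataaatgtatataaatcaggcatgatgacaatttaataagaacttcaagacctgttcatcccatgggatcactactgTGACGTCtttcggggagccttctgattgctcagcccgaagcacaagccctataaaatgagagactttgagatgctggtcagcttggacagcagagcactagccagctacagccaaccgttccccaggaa
Cartpt (chr13:99900634-99900933, minus strand): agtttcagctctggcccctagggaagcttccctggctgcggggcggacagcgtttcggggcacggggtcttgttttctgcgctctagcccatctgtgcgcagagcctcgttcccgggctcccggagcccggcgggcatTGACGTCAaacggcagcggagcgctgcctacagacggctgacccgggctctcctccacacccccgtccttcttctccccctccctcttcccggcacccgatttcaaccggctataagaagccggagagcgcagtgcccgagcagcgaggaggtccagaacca
Sst (chr16:23890795-23891094, minus strand): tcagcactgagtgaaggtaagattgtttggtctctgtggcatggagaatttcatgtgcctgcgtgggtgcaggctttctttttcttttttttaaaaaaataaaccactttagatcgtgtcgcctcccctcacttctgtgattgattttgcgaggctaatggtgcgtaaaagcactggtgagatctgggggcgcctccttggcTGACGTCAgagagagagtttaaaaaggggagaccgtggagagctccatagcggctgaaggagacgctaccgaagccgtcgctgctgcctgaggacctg
The full 8 letters stood in the windows of Cartpt and Sst, which was 2 of 8 genes, against 2.03% of the 27025 genes in the table. The 7 letters stood in those windows and in that of Vip, against 3.60% of all genes. Genes with several windows in the table counted where any of them held the letters. The matches began 79 bases before the start used for Vip, 112 before that of Cartpt and 48 before that of Sst. A match is a run of letters, and binding was not measured.

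The levels are log2 intensities that the authors made with RMA, and fold changes are differences of group means on that scale, given with their standard error. Fold changes were tested with limma over all 26903 probe sets that stood above the median of their array on at least 2 arrays. A probe set was called at an adjusted p below 0.05 and a change of at least 2-fold. Array medians ran between 4.66 and 4.84. Values near or below them are within background, and where a group lies there the printed fold change may be too small. Of the 14 probe sets, 11 passed this filter, and 6 of these were above the median on tissue arrays only, so their passing already required a difference between lines and tissue. The counts below are therefore a description and not support for a direction. The authors' hybridisation controls averaged 8.14 ± 0.19 in the tsA58 line, 9.63 ± 0.29 in the C57BL/6J line, 8.74 ± 1.10 in tsA58 tissue and 10.86 ± 0.13 in C57BL/6J tissue (SD). Centring arrays on them moved every fold change by 0.60 in the tsA58 line against its tissue, 1.23 in the C57BL/6J line against its tissue, 1.49 between lines and 2.13 between tissues. The fold changes given are thus relative to the typical transcript of the same array.

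Both lines had lower levels of most of these genes than the stomach muscle they came from. In the tsA58 line against tsA58 tissue, all 11 tested probe sets, of 9 genes, were lower, with a median of -5.12 against 0.10 over all probe sets tested. Of all probe sets 15.9% were called lower and 14.6% higher. In the C57BL/6J line against C57BL/6J tissue, 9 of 11 were lower and 0 higher, with a median of -2.95 against 0.15 over all, where 16.3% were called lower and 17.8% higher. The 2 not called were Npy and 1 probe set of Nos1. At an unadjusted p below 0.05 in limma, 0 were higher in either comparison. A level in whole tissue does not separate the number of neurons from the RNA per neuron.

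**Figure D1:**
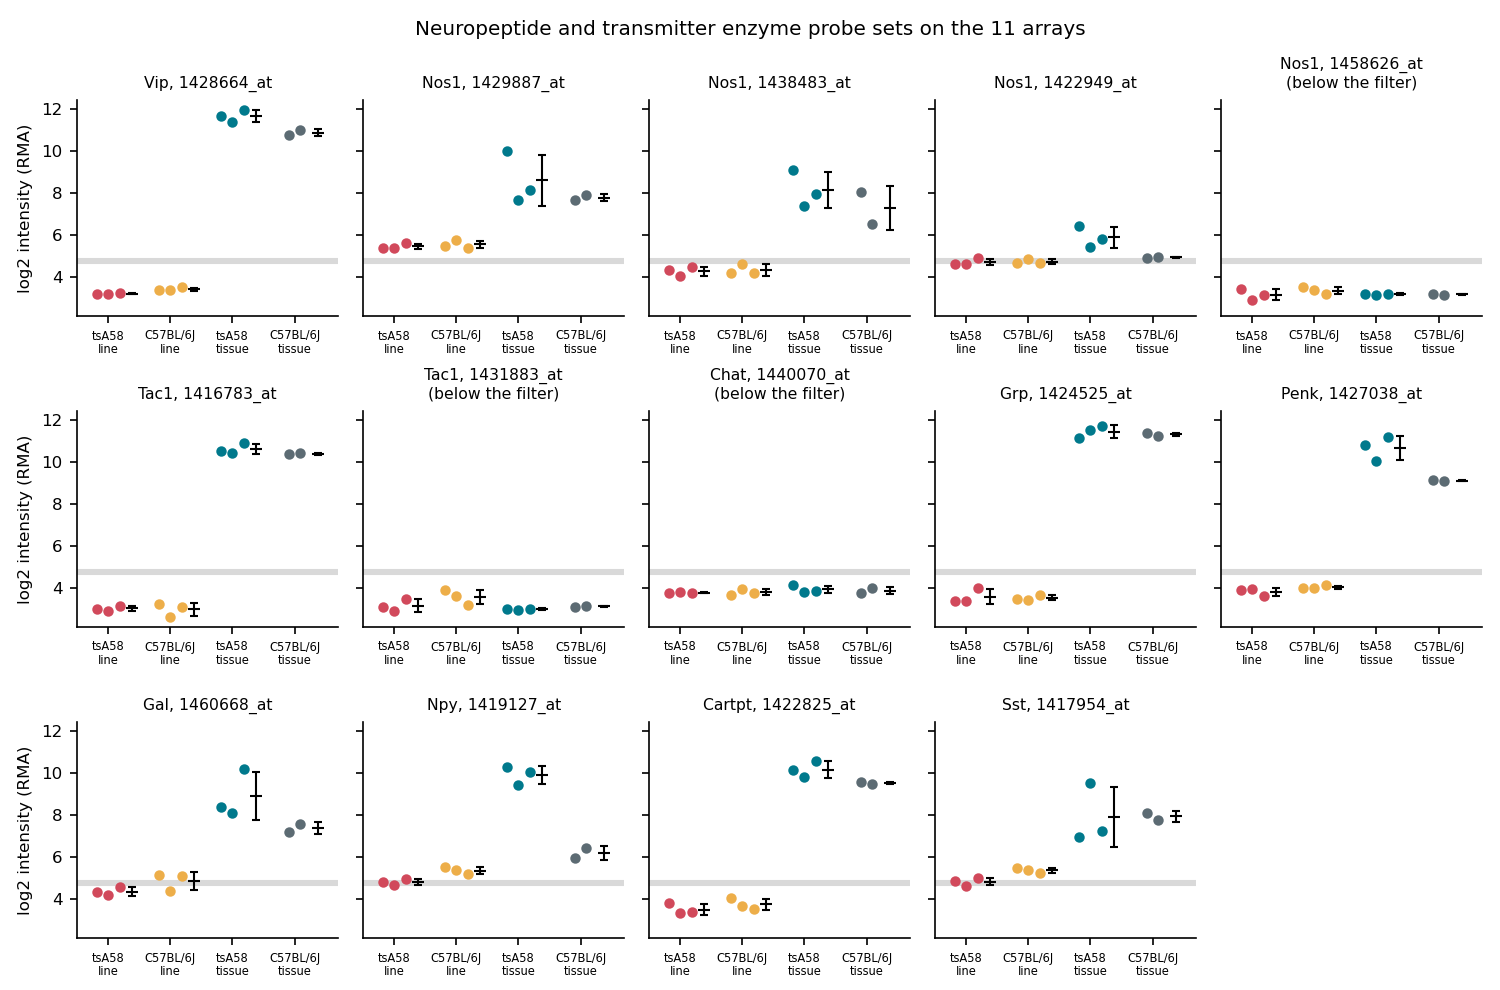
Log2 intensity (RMA) of the 14 probe sets on each of the 11 arrays, with a point per array and the mean ± SD of each group beside its points. The grey band spans the 11 array medians, from 4.66 to 4.84. Vip, Tac1 (1416783_at), Grp, Penk and Cartpt lie below it on every line array and far above it on every tissue array, and Chat lies below it on all arrays.

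Vip, whose peptide relaxes gut muscle, stood at 3.18, 3.15 and 3.21 on the tsA58 line arrays and 3.34, 3.37 and 3.49 on the C57BL/6J line arrays, against 11.64, 11.35 and 11.94 in tsA58 tissue and 10.73 and 10.98 in C57BL/6J tissue. All line values lay below the array medians and all tissue values more than 7 log2 units above the lines. The change was -8.47 ± 0.18, adjusted p = 3.82e-10 for the tsA58 line and -7.46 ± 0.20, adjusted p = 3.43e-09 for the C57BL/6J line, or 354-fold and 176-fold lower.

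Nos1, the nitric oxide synthase of neurons, gave different answers by probe set. With 1429887_at it stood at 5.36, 5.35 and 5.59 for the tsA58 line and 5.48, 5.74 and 5.38 for the C57BL/6J line, against 9.97, 7.64 and 8.15 in tsA58 tissue and 7.65 and 7.87 in C57BL/6J tissue. These line levels stayed above the array medians, and 1 tsA58 tissue array was well above the other two. The change was -3.15 ± 0.46, adjusted p = 0.000313 for the tsA58 line and -2.23 ± 0.52, adjusted p = 0.00493 for the C57BL/6J line. Probe set 1438483_at stood at 4.31, 4.03 and 4.45 for the tsA58 line and 4.15, 4.62 and 4.17 for the C57BL/6J line, against 9.07, 7.35 and 7.95 in tsA58 tissue and 8.01 and 6.52 in C57BL/6J tissue. Here the lines were at background, and replicate 1 was the highest array of each tissue. It changed by -3.86 ± 0.44, adjusted p = 5.87e-05 and -2.95 ± 0.50, adjusted p = 0.000708 in the same order.
The third, 1422949_at, was at 4.69 ± 0.16 for the tsA58 line and 5.86 ± 0.49 in tsA58 tissue (-1.18 ± 0.23, adjusted p = 0.00204), a call that ended without tsA58 tissue replicate 1 (-0.91) and with centring on the hybridisation controls (-0.58, adjusted p = 0.492). It was at 4.71 ± 0.11 in the C57BL/6J line and 4.91 ± 0.01 in C57BL/6J tissue (-0.20 ± 0.26, adjusted p = 0.564), all close to the array medians. The fourth, 1458626_at, ran from 2.87 to 3.48 over the 11 arrays and was not tested.

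Among the genes of excitatory transmission, Tac1 stood at 2.98, 2.90 and 3.14 for the tsA58 line and 3.20, 2.59 and 3.07 for the C57BL/6J line, against 10.52, 10.41 and 10.88 in tsA58 tissue and 10.36 and 10.42 in C57BL/6J tissue (1416783_at). The lines and tissues did not overlap, and all 5 tissue arrays lay between 10.36 and 10.88. The change was -7.59 ± 0.20, adjusted p = 1.36e-09 for the tsA58 line and -7.43 ± 0.23, adjusted p = 6.13e-09 for the C57BL/6J line. The other Tac1 probe set, 1431883_at, stayed between 2.88 and 3.86 on all arrays, tissue included, and was not tested. Grp, whose peptide releases gastrin and excites gut muscle, stood at 3.38, 3.34 and 3.97 for the tsA58 line and 3.47, 3.42 and 3.64 for the C57BL/6J line, against 11.11, 11.49 and 11.71 in tsA58 tissue and 11.36 and 11.24 in C57BL/6J tissue. It changed by -7.87 ± 0.22, adjusted p = 1.63e-09 for the tsA58 line and -7.79 ± 0.25, adjusted p = 7.83e-09 for the C57BL/6J line.
Chat gave no usable reading. Its single probe set, 1440070_at, ran from 3.72 to 3.78 for the tsA58 line and 3.65 to 3.92 for the C57BL/6J line, against 3.81 to 4.11 in tsA58 tissue and 3.74 to 3.97 in C57BL/6J tissue. All 11 values lie below the array medians, so this probe set does not show whether Chat was transcribed. The vesicular acetylcholine transporter Slc18a3, whose gene lies within the Chat gene, was measured in tsA58 tissue, as given below.

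Penk, the precursor of the enkephalins that damp transmitter release, stood at 3.90, 3.92 and 3.58 for the tsA58 line and 3.97, 3.98 and 4.11 for the C57BL/6J line, against 10.82, 10.05 and 11.17 in tsA58 tissue and 9.11 and 9.08 in C57BL/6J tissue. The line arrays were alike, and each tsA58 tissue array lay above both C57BL/6J tissue arrays. The change was -6.88 ± 0.26, adjusted p = 1.28e-08 for the tsA58 line and -5.07 ± 0.29, adjusted p = 5.26e-07 for the C57BL/6J line.

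Cartpt, which encodes CART peptides found in myenteric neurons, stood at 3.79, 3.30 and 3.34 for the tsA58 line and 4.02, 3.66 and 3.50 for the C57BL/6J line, against 10.12, 9.78 and 10.57 in tsA58 tissue and 9.56 and 9.46 in C57BL/6J tissue. It changed by -6.68 ± 0.24, adjusted p = 1.02e-08 for the tsA58 line and -5.78 ± 0.27, adjusted p = 1.21e-07 for the C57BL/6J line. Gal, the precursor of galanin, which modulates transmitter release, stood at 4.31, 4.15 and 4.55 for the tsA58 line and 5.11, 4.35 and 5.08 for the C57BL/6J line, against 8.36, 8.09 and 10.18 in tsA58 tissue and 7.17 and 7.57 in C57BL/6J tissue. Replicate 3 of tsA58 tissue was the highest of all arrays for Gal. Its change was -4.54 ± 0.46, adjusted p = 2.36e-05 for the tsA58 line and -2.52 ± 0.52, adjusted p = 0.00231 for the C57BL/6J line.
Npy, a peptide of enteric neurons and sympathetic nerves, behaved differently by strain. It stood at 4.79, 4.65 and 4.92 for the tsA58 line and 5.51, 5.34 and 5.15 for the C57BL/6J line, against 10.26, 9.43 and 10.02 in tsA58 tissue and 5.94 and 6.42 in C57BL/6J tissue. Levels in C57BL/6J tissue were just above those of the lines, while tsA58 tissue was far above all other arrays. The tsA58 line was lower than its tissue (-5.12 ± 0.24, adjusted p = 5.52e-08). The C57BL/6J line differed from its tissue by -0.85 ± 0.26, adjusted p = 0.022, under 2-fold and so not called, but called without C57BL/6J tissue replicate 1 (-1.09, adjusted p = 0.0318).

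**Figure D2:**
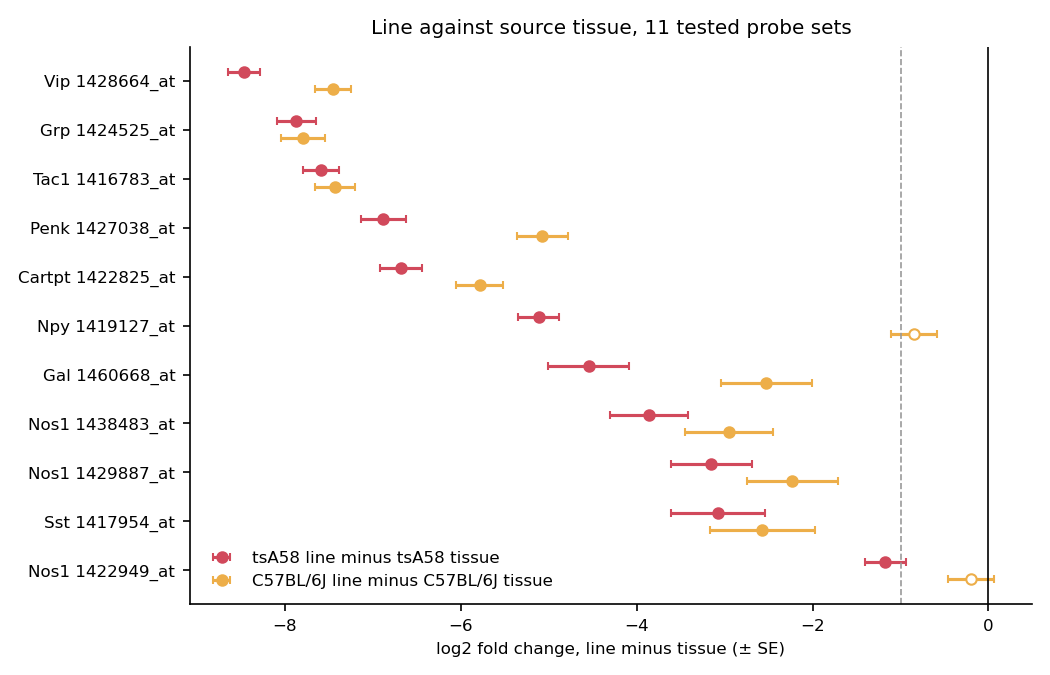
Log2 fold change of line over tissue within each strain (± SE), for the 11 tested probe sets, with the tsA58 line above the C57BL/6J line at each probe set. Filled points were called, open points were not, and the dashed line marks a 2-fold lower level. Npy shows the widest gap between strains, -5.12 against -0.85, and Grp and Tac1 nearly coincide.

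Sst, an inhibitor of hormone and transmitter release, stood at 4.84, 4.61 and 4.98 for the tsA58 line and 5.47, 5.34 and 5.22 for the C57BL/6J line, against 6.92, 9.53 and 7.21 in tsA58 tissue and 8.09 and 7.74 in C57BL/6J tissue. All tissue arrays were above all line arrays, and replicate 2 of tsA58 tissue stood apart from the other two. The change was -3.07 ± 0.53, adjusted p = 0.000911 for the tsA58 line and -2.57 ± 0.60, adjusted p = 0.00485 for the C57BL/6J line. The mean of 10 gastric epithelium markers on the same arrays was 9.09, 11.83 and 9.52 in tsA58 tissue and 10.34 and 10.01 in C57BL/6J tissue. All 10 were above the median on all 5 tissue arrays, and the means of the line arrays ran between 4.86 and 5.53. The mean of 8 exocrine pancreas markers was 5.20, 10.29 and 6.07 in tsA58 tissue and 11.15 and 6.28 in C57BL/6J tissue. Sst and both marker lists were thus highest within tsA58 tissue on the same array, replicate 2. Of 5 pancreatic islet markers, 1 or 2 were above the median on any tissue array. Their mean was 3.72, 4.17 and 3.74 in tsA58 tissue and 4.67 and 3.91 in C57BL/6J tissue. Within each strain it was highest on the array that was highest for Sst and for the exocrine pancreas markers. The parts of mucosa and pancreas in the Sst level were not tested. Without tsA58 tissue replicate 2 the tsA58 line still had lower Sst (-2.25, adjusted p = 2.11e-05).

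**Figure D3:**
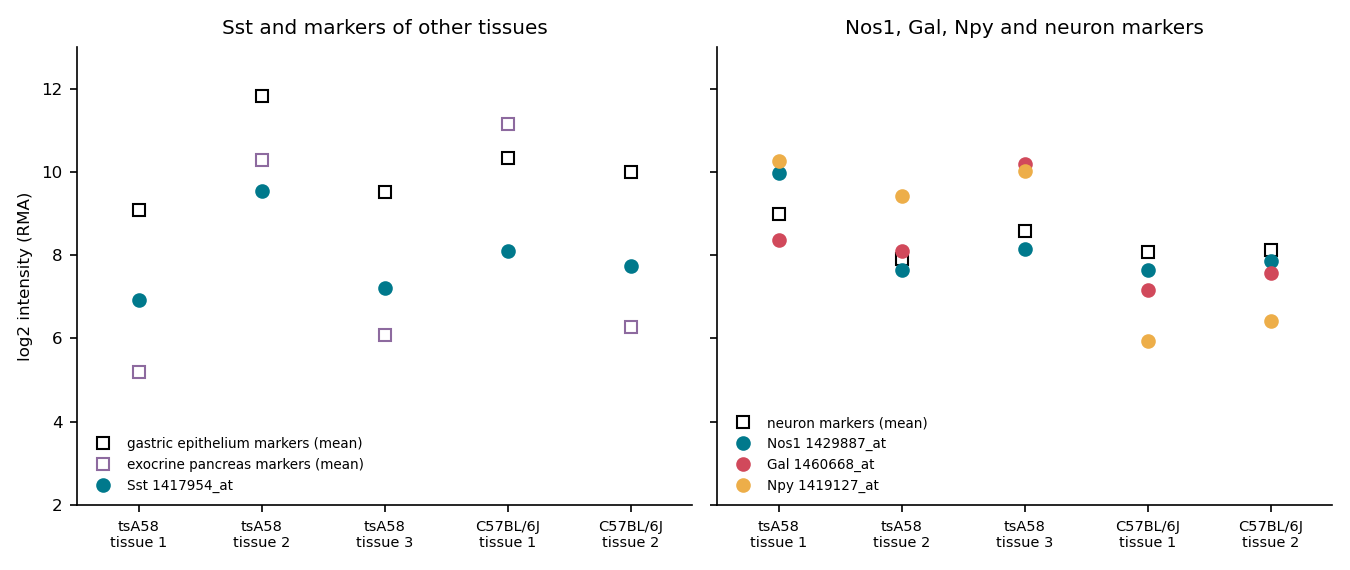
Log2 intensities (RMA) on the 5 tissue arrays. Left, Sst with the means of 10 gastric epithelium and 8 exocrine pancreas markers, where tsA58 tissue replicate 2 is the highest tsA58 array for all of them. Right, Nos1 (1429887_at), Gal and Npy with the mean of 16 neuron markers. Heights compare arrays for a given symbol, not one gene with another.

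The tissues were compared with each other to see which of these genes differ between the stomach walls of the strains. The actin 3′ to 5′ log2 ratio was 0.44 ± 0.03 in tsA58 tissue and 0.93 ± 0.12 in C57BL/6J tissue (SD). Strain and RNA quality thus cannot be told apart here. The tsA58 tissue had more Npy and Penk RNA relative to other transcripts than C57BL/6J tissue, and the other 9 of 11 probe sets were not called, so that 2 were higher and 0 lower. At an unadjusted p below 0.05, 6 were higher and 0 lower in limma. The median over the 11 was 0.82, against 0.12 over all probe sets tested, of which 9.83% were called higher and 6.04% lower. Npy averaged 9.90 ± 0.43 in tsA58 tissue (SD, n = 3) and 6.18 ± 0.34 in C57BL/6J tissue (SD, n = 2), a change of 3.72 ± 0.26, adjusted p = 2.72e-05, or 13.2-fold. Penk averaged 10.68 ± 0.57 in tsA58 tissue and 9.09 ± 0.02 in C57BL/6J tissue, a change of 1.59 ± 0.29, adjusted p = 0.00335, or 3.01-fold. With arrays centred on the hybridisation controls these changes were 5.85 and 3.71, or 3.61 and 1.47 above the median of all probe sets, which moved to 2.24.

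Vip was under the 2-fold threshold between tissues (0.79 ± 0.20, adjusted p = 0.0178), as was Cartpt (0.64 ± 0.27, adjusted p = 0.107). Gal missed the p threshold (1.51 ± 0.52, adjusted p = 0.0566), and the Nos1 probe sets were at 0.82 ± 0.52, adjusted p = 0.284 for 1429887_at, 0.86 ± 0.50, adjusted p = 0.242 for 1438483_at and 0.95 ± 0.26, adjusted p = 0.0231 for 1422949_at. Without tsA58 tissue replicate 2, 4 probe sets were called higher in place of 2, the additional ones being Gal (1.90, adjusted p = 0.024) and Nos1 1422949_at (1.18, adjusted p = 0.00751). Of all probe sets 10.3% were called higher in that fit. Gal was also called without tsA58 tissue replicate 1 (1.77, adjusted p = 0.0459). Tac1 (0.21 ± 0.23, adjusted p = 0.545), Grp (0.13 ± 0.25, adjusted p = 0.741) and Sst (-0.03 ± 0.60, adjusted p = 0.979) were nearest to 0, and the sign of Grp turned in 4 of 21 alternatives and that of Sst in 5. Without tsA58 tissue replicate 2, Sst stood at -0.85, adjusted p = 0.0268, under 2-fold.

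The mean of 16 neuron markers was 8.99, 7.91 and 8.58 in tsA58 tissue and 8.07 and 8.13 in C57BL/6J tissue. For the tested Nos1 probe sets and Npy, tsA58 tissue replicate 1 was the highest and replicate 2 the lowest, the same order as in that mean. The other tested genes had a different order. Vip, Tac1, Penk, Gal and Cartpt were highest on replicate 3 and lowest on replicate 2. Grp was highest on replicate 3 and lowest on replicate 1, and Sst was highest on replicate 2. None of the neuron markers was called between tissues by limma (0 of 16, median 0.53), and at an unadjusted p below 0.05 there were 3 higher and 1 lower. Of all probe sets 9.83% were called higher and 6.04% lower between tissues. Smooth muscle markers were called higher in tsA58 tissue for 4 of 8 (median 1.25), and their mean was 12.57, 12.39 and 12.71 in tsA58 tissue and 11.05 and 11.26 in C57BL/6J tissue. The part of tissue makeup in the Npy and Penk differences was not tested.

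**Figure D4:**
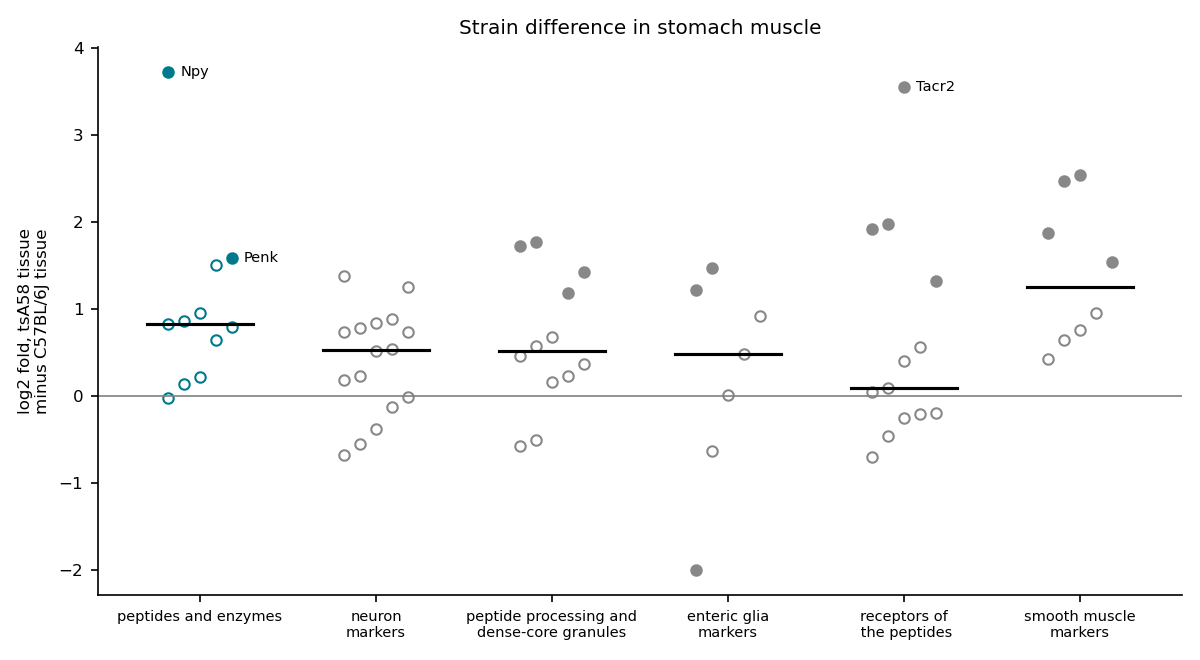
Log2 fold change of tsA58 tissue against C57BL/6J tissue for the 11 peptide and enzyme probe sets and for the tested genes of 5 marker and pathway lists. Filled points were called, open points were not, and bars are medians, 0.82 for the peptides and enzymes and 0.53 for the neuron markers. Npy at 3.72 and the tachykinin receptor Tacr2 at 3.56 lie above all other points. Centring on the hybridisation controls would add 2.13 to every point.

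Between the lines, none of these genes was called. In the tsA58 line against the C57BL/6J line, 0 of 11 probe sets were higher and 0 lower at the adjusted threshold in limma, and at an unadjusted p below 0.05 there was 1, Npy, which was lower (-0.54 ± 0.24, adjusted p = 0.122). Of all probe sets, 8.71% were called higher and 5.52% lower. The 11 changes ran from -0.54 to 0.06. Both lines were near background for most of these genes, where a difference could be hidden. With the hybridisation controls as the centre, 5 probe sets were called higher (Nos1 1429887_at, 1438483_at and 1422949_at, Tac1 and Grp), by 1.39 to 1.54. With that scaling the median of all probe sets moved to 1.47, and 60.0% of all probe sets were called higher. The 5 calls are thus not read as a result about these genes.

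The change from tissue to line was also compared between strains, as the tsA58 difference minus the C57BL/6J difference. The difference was called below 0 for Npy (-4.27 ± 0.35, adjusted p = 7.83e-05), Penk (-1.81 ± 0.38, adjusted p = 0.00734) and Vip (-1.01 ± 0.27, adjusted p = 0.0216), so 3 of 11 were lower and 0 higher. Of all probe sets 12.3% were lower and 10% higher in this comparison, and the medians were -0.92 over the 11 and -0.12 over all. At an unadjusted p below 0.05, 6 of the 11 were lower and 0 higher in limma. The Npy call held in all 20 alternatives and the Penk call in 19, the exception being centring on the hybridisation controls (-2.45, adjusted p = 0.113). The Vip call lay at the 2-fold threshold and ended in 8 of 20. With C57BL/6J tissue replicate 1 left out it was -0.89 (adjusted p = 0.103), and it was under 2-fold without tsA58 tissue replicate 3 (-0.86), tsA58 line replicate 2 (-0.99) or C57BL/6J line replicate 3 (-0.97). Without tsA58 tissue replicate 2, 6 probe sets were lower in place of 3, the additional ones being Gal (-2.41, adjusted p = 0.0242), Cartpt (-1.08, adjusted p = 0.0474) and Nos1 1422949_at (-1.20, adjusted p = 0.02). Of all probe sets 12.6% were called lower in that fit. With all arrays Gal was at -2.02 ± 0.69 and missed the p threshold (adjusted p = 0.0554). It was also called without tsA58 tissue replicate 1 (-2.28, adjusted p = 0.0429) or replicate 3 (-1.37, adjusted p = 0.033). The same held with the actin ratio as a covariate (-2.05, adjusted p = 0.049). Vip and Penk lay below the array medians in both lines, so their values here are a difference between background values (-0.22 ± 0.18 for Vip and -0.22 ± 0.26 for Penk) minus the tissue difference (0.79 ± 0.20, not called, for Vip and 1.59 ± 0.29, called, for Penk). They give no size for a change between tissue and line, and Npy was itself near the array medians in the tsA58 line. This comparison shares its arrays with the others.

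Genes that make, store and answer these transmitters were taken from lists set by function. Their tested genes passed the same filter, so counts of all lists are likewise a description and not support for a direction. Over all probe sets 15.9% were called lower and 14.6% higher in the tsA58 line against its tissue. In the C57BL/6J line against its tissue 16.3% were called lower and 17.8% higher. Of 12 tested genes of peptide processing and dense-core granules, 10 fell in the tsA58 line against its tissue and 0 rose (median -4.04), and 8 fell and 1 rose in the C57BL/6J line (median -3.14). The granule proteins Scg2 (-7.15 ± 0.20 for the tsA58 line and -5.61 ± 0.22 for the C57BL/6J line) and Scg5 (-5.87 ± 0.21 and -5.37 ± 0.24) fell in both. The granule membrane protein Ptprn was the one that rose in the C57BL/6J line (1.88 ± 0.44). Carboxypeptidase E (Cpe), which trims peptides after cleavage and was picked after its values were seen, averaged 11.03 for the tsA58 line and 11.95 for the C57BL/6J line, against 11.80 in tsA58 tissue and 11.57 in C57BL/6J tissue. It was not called in either line against its tissue (-0.76 ± 0.16 and 0.37 ± 0.18). Cpe was well above the array medians in both lines, where Vip, Tac1, Grp, Penk and Cartpt were below them.

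The neuron markers fell with the peptides in both lines. Of 16 tested, 15 fell in the tsA58 line (median -4.29) and 15 in the C57BL/6J line (median -3.90), and 0 rose. Over all probe sets 15.9% were called lower for the tsA58 line and 16.3% for the C57BL/6J line. The receptor Ret, which guides enteric neuron precursors, fell in both (-6.49 ± 0.23 for the tsA58 line and -6.88 ± 0.25 for the C57BL/6J line). The synaptic protein Snap25 averaged 2.83 for the tsA58 line and 7.93 for the C57BL/6J line, and it was lower than in tissue in both (-7.18 ± 0.27 and -1.85 ± 0.31). The ubiquitin hydrolase Uchl1 averaged 4.60 for the tsA58 line and 7.92 for the C57BL/6J line. Between 5 and 6 of the 16 were above the array median on each array of either line, against all 16 on each tissue array, and Snap25 and Uchl1 are among those few in the C57BL/6J line.

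Genes of transmitter synthesis and transport were also listed. Of 9 tested other transmitter enzymes, 1 rose and 2 fell in the tsA58 line (median -0.24), and 3 rose and 0 fell in the C57BL/6J line (median 0.33). Over all probe sets 14.6% were higher and 15.9% lower in the tsA58 line, and 17.8% and 16.3% in the C57BL/6J line, so such counts of 9 or fewer are not read as a result about these genes as a group. The one that rose in both was Cth (3.46 ± 0.52 for the tsA58 line and 2.09 ± 0.58 for the C57BL/6J line), which can make hydrogen sulphide. In the C57BL/6J line the endothelial synthase Nos3 (1.82 ± 0.33) and Gch1 (2.41 ± 0.58), which starts synthesis of the cofactor of nitric oxide synthases, also rose. Of 6 tested transporters, 3 fell in the tsA58 line (median -0.98), while 1 rose and 1 fell in the C57BL/6J line (median 0.21). Slc18a3, which loads acetylcholine into vesicles, averaged 3.49 for the tsA58 line and 6.77 in tsA58 tissue (-3.28 ± 0.26, adjusted p = 3.6e-06), against 3.71 in the C57BL/6J line and 4.59 in C57BL/6J tissue (-0.88 ± 0.29, adjusted p = 0.0298), under 2-fold. The acetylcholine-degrading enzyme Ache fell in the tsA58 line (-3.96 ± 0.38) and was not called in the C57BL/6J line (-1.08 ± 0.42). Both were called higher in tsA58 tissue than in C57BL/6J tissue, Ache by 2.42 ± 0.42 and Slc18a3 by 2.18 ± 0.29.

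Of 13 tested peptide receptors, 6 fell in the tsA58 line (median -0.62), and 1 rose and 1 fell in the C57BL/6J line (median -0.15), against 15.9% lower over all probe sets for the tsA58 line and 16.3% for the C57BL/6J line. Between tissues 4 of 13 were higher in tsA58 tissue and 0 lower (median 0.09), against 9.83% higher and 6.04% lower over all probe sets. These were the neurokinin receptor Tacr2 (3.56 ± 0.26), the galanin receptor Galr2 (1.97 ± 0.39), the VIP receptor Vipr2 (1.92 ± 0.22) and the neuropeptide Y receptor Npy1r (1.33 ± 0.32). Tacr2, a receptor of smooth muscle for the Tac1 product neurokinin A, averaged 9.24 in tsA58 tissue and 5.68 in C57BL/6J tissue, while Tac1 itself was not called between tissues. Npy1r fell in the tsA58 line (-1.42 ± 0.29) and rose in the C57BL/6J line (1.42 ± 0.32). Of the 7 tested genes of the nitric oxide response, 5 fell in the tsA58 line (median -5.24) and 6 in the C57BL/6J line (median -3.52), the guanylate cyclase subunit Gucy1a1 by -6.97 ± 0.18 and -6.63 ± 0.20. Of 4 tested acetylcholine receptor genes 3 fell in each line, for example the ganglionic nicotinic subunit Chrna3 (-3.59 ± 0.29 and -2.42 ± 0.33), with medians of -2.94 for the tsA58 line and -2.14 for the C57BL/6J line.

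Of 7 tested genes of other gut and islet peptides, 3 fell in each line and 0 rose (medians -0.66 for the tsA58 line and -0.88 for the C57BL/6J line). Over all probe sets 15.9% were called lower for the tsA58 line and 16.3% for the C57BL/6J line. The counts of these short lists are given as a description. The sensory peptide gene Calcb (-2.16 ± 0.27 for the tsA58 line and -3.31 ± 0.30 for the C57BL/6J line) and neurotensin (Nts, -1.76 ± 0.43 and -2.83 ± 0.48) fell in both. Between tissues 2 of the 7 were lower in tsA58 tissue and 0 higher (median -0.90), the enteroendocrine peptide Pyy (-2.92 ± 0.28) and Calcb (-1.18 ± 0.30). Over all probe sets 6.04% were lower and 9.83% higher between tissues. The difference in Calcb is smaller than the 2.13 that centring on the hybridisation controls adds between tissues, so its direction turns under that scaling. Pyy keeps its direction there, but at under 2-fold. Of 4 tested endocrine genes of the gastric mucosa, 2 fell for the tsA58 line and 3 for the C57BL/6J line (medians -1.70 and -2.70), gastrin (Gast) by -2.93 ± 0.47 and -5.44 ± 0.52. Gast was also lower in tsA58 tissue than in C57BL/6J tissue (-2.51 ± 0.52), as was Gip (-1.22 ± 0.31). Under that scaling Gast is under 2-fold and Gip turns its direction. Ghrl, the ghrelin gene, was not called between tissues (0.21 ± 1.01). Glial markers fell in 6 of 7 for the tsA58 line and 5 of 7 for the C57BL/6J line (medians -3.00 and -1.52), and between tissues 2 were higher and 1 lower in tsA58 tissue (median 0.49). Of 5 ICC markers, 4 fell in each line (medians -2.46 and -1.10), and all 8 smooth muscle markers fell for the tsA58 line and 6 for the C57BL/6J line (medians -6.19 and -3.58). Gastric epithelium markers fell in 9 of 10 for the tsA58 line and 8 of 10 for the C57BL/6J line (medians -5.09 and -5.40), and exocrine pancreas markers in 3 of 8 in each (medians -1.91 and -3.75). The single tested islet marker was not called in any comparison.

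The genes with the most similar profiles over the 11 arrays were found by the root mean square difference between profiles centred on their own mean, among 13285 genes. The nearest to Penk were synuclein gamma (Sncg, 0.24) and Scg2 (0.29). Cartpt was nearest to Smoc2 (0.28), followed by Scg2 (0.30). Tac1 was nearest to Synpo2 (0.23), followed by Grp (0.25), and Grp was nearest to Tac1 (0.25), followed by Aspn (0.29). Nearest to Vip were Aspn (0.30), Synpo2 (0.31) and the smooth muscle myosin Myh11 (0.33). Nos1 was nearest to Gdf10 (0.24), the synaptotagmin Syt4 (0.29) and the actin Acta1 (0.30). The nearest to Npy lay further off, Mettl24 at 0.46 and Tacr2 at 0.51, and those of Gal were Sult1a1 at 0.32 and Cdh19 at 0.43. Sst was nearest to Cd52 (0.34), Oit1 (0.36) and Spink4 (0.38). The lines and tissues form separate clusters, which weigh most in this measure, and it is given as a description.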

How the data were processed

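RNA of 2 progenitor lines and 2 tissues was measured on 11 Affymetrix mouse genome arrays, from about 50 ng of RNA amplified in 2 rounds per the labels' protocols. For each probe set the authors deposited a log2 intensity. It was computed with RMA, per the submitters' processing notes, which name no version. RMA adjusts arrays to each other, so values are relative within an array. The deposited values were not on exactly 1 distribution, since the array medians ran between 4.66 and 4.84. Groups came from the sample labels. A probe set was named only where the platform annotation gives 1 symbol, which held for 34945 of 45101 probe sets, while 932 had several symbols and 9160 had none. The 64 control probe sets were left out of the tests.

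A model of 4 group means was fitted to all 11 arrays in R 4.3.3 by lmFit and eBayes of limma 3.58.1 (7 residual and 3.71 prior degrees of freedom), over the 26903 probe sets above their array's median on at least 2 arrays. All p-values printed come from this model with Benjamini-Hochberg adjustment over all probe sets tested, except where an alternative is named. The thresholds were an adjusted p of 0.05 and 2-fold. The method was tested on simulated data. Tables and figures were made with Python 3.11.15. The number of arrays limits the precision.

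The genes and the 15 lists of related genes and markers (152 of 166 entries found, 117 tested) were chosen with earlier results of these data known. From each list, up to 3 called genes with the largest change in a comparison were named, with genes of any count of 5 or fewer, and for each peptide or enzyme gene the 3 genes nearest in profile were eligible. Where a listed gene had several probe sets, the one highest on average was used. The 21 alternatives changed the normalisation, centring, filter, probe set choice, arrays fitted, covariates, replicate block or variance model, or left out 1 array. Replicate numbers gave no sign of pairing: deviations from group means of arrays with the same number correlated between -0.157 and 0.22. With so few arrays in a group these correlations cannot exclude pairing.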

Additional observations from a re-analysis of the deposited data

Results flagged for a closer look

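The change from tissue to line differed between strains for Npy, Penk and Vip, by a test of the difference itself in the limma model. The tsA58 difference minus the C57BL/6J difference was -4.27 for Npy, -1.81 for Penk and -1.01 for Vip. For Npy and Penk the tissues differed while the lines did not pass the test. For Vip neither the tissues (0.79, under 2-fold) nor the lines (-0.22) were called, both lines lay below the array medians, and the call ended in 8 of 20 alternatives. Penk also lay below the array medians in both lines, and its call ended with centring on the hybridisation controls. No group has over 3 arrays, so single arrays that stand apart within a group were not tested.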

How the results depend on the processing

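Over 21 alternatives, 19 of the 25 called changes of these genes stayed called throughout, 6 lost the call in some, and none of the 25 turned its direction. Among 1134 values, 1093 kept their direction or their lack of a call, 14 lost a call, 23 gained one and 4 turned round. Within the 1093, the sign turned in 39 with no call on either side. Centring on the hybridisation controls moved the most. With it, the tsA58 line was called higher than the C57BL/6J line for 5 probe sets in place of 0, where 60.0% of all probe sets were called higher. Among the 5 were Nos1 1429887_at (1.39), 1438483_at (1.44) and 1422949_at (1.47), each between -0.10 and -0.02 without it. Their signs also turned in 1, 3 and 5 other alternatives. Between tissues it called 11 in place of 2, with Sst turned to 2.10, where 88.1% of all probe sets were called higher. In the comparison of strains it left 1 lower in place of 3, where 3.36% of all probe sets were called lower. In the C57BL/6J line against its tissue it ended the calls of Nos1 1429887_at (adjusted p = 0.205), Gal (-1.29) and Sst (-1.34), and in the tsA58 line against its tissue that of Nos1 1422949_at (-0.58). Leaving out 1 array gave between 2 and 4 probe sets called higher between tissues and between 2 and 6 lower in the comparison of strains, the highest in both without tsA58 tissue replicate 2. Without that array, 10.3% of all probe sets were called higher between tissues and 12.6% lower in the comparison of strains.

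With a replicate block, the counts were 9 lower for the C57BL/6J line, 11 lower for the tsA58 line, 0 between lines, 2 higher between tissues and 2 lower in the comparison of strains, where Vip lost its call (-0.94, adjusted p = 0.0516). In the labels the arrays share only a number. In the 3 pairs of groups with 3 arrays each, 2 of 6, 0 of 6 and 2 of 6 arrays correlated best with their own number. Levels near the array medians limit what can be seen in the lines, and 2 arrays of C57BL/6J tissue limit each comparison that uses it.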
